A study of Mus musculus with 12 samples.

Results

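Postnatal maturation was followed in the eYFP+ β cells of the mouse islet, by comparing their DNA methylomes at postnatal day 60 (P60) with those at postnatal day 2 (P2). All 6 samples of this lineage in the series of 12 were used, 2 at P2 (1 female, 1 male) and 4 at P60 (2 female, 2 male), and the other 6 samples, eYFP- β cells of the same ages, served only to show where the lineages differed. Every sample of both ages came from animals carrying Myt1cCre, Ngn3nCre, Rosa26eYFP and InsApple. The first pair are the inactive pieces of a split Cre recombinase, made under the control of Myt1 and of Neurog3 (Ngn3), so that eYFP stays on in cells whose progenitor expressed both genes (M+N+), and Apple marks insulin-expressing cells. The labels name the reporter eGFP and the cell type as all islet cells, whereas the methods describe sorting of eYFP+, Apple+ β cells. Each sample combined cells of several sorts and animals, so a value belongs to a pool of mice and a partly methylated region cannot be told apart from a mixture of methylated and unmethylated cells. The P2 samples were sequenced in another submission than the P60 samples, hence age and submission cannot be told apart.

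CpG methylation covers most of the mammalian genome and is absent from short stretches, the hypomethylated regions (HMRs), which sit on gene starts and on enhancers used by the cell or by its ancestors. DNMT3 enzymes write new methylation, DNMT1 copies it at replication and TET enzymes oxidise it as a step of its removal. The newborn β cell still divides and responds poorly to glucose. In the weeks that follow it stops dividing, turns on genes of the adult cell such as Ucn3 and couples glucose metabolism to insulin release.

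The stretches below carry large changes of the pooled level at genes of β-cell function, together with the region of largest gain that could be shown without untranslated sequence. Distances are from the start of the gene's canonical transcript. From regions longer than 300 bp, only the 300 bases with the largest summed CpG change outside untranslated sequence are shown. This applies to Ucn3, Iapp, the Prlr intron and Tet3. The whole Ucn3 region stood at 35.9% and 7.53%, and that of Iapp at 30.2% and 6.12%. The stretches are the forward strand of GRCm39, each with its CpG dinucleotides in capitals, and each is given with the share of methylated reads at P2 and then at P60.
Ucn3, intron, 1288 to 1587 bp past the start, chr13:3993762-3994061, 64.8% and 6.02%: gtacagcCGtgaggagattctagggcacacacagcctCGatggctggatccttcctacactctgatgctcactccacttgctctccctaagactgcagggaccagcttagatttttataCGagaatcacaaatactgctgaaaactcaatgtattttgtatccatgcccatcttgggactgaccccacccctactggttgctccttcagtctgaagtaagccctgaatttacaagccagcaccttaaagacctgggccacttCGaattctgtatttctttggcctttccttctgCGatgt
Iapp, last intron and last exon, 4742 to 5041 bp past the start, chr6:142248891-142249190, 47.4% and 9.59%: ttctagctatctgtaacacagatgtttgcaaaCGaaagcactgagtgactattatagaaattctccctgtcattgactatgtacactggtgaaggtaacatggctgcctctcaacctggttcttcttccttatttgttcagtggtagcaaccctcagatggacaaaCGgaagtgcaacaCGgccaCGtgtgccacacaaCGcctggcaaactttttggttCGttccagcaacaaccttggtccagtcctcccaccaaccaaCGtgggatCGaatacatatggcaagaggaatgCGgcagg
Glp1r, intron, chr17:31129959-31130119, 62.0% and 11.2%: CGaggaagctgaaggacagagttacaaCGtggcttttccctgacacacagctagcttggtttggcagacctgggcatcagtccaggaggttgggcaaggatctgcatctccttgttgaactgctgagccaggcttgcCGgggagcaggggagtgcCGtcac
Prlr, intron, chr15:10179802-10180101, 64.2% and 17.7%: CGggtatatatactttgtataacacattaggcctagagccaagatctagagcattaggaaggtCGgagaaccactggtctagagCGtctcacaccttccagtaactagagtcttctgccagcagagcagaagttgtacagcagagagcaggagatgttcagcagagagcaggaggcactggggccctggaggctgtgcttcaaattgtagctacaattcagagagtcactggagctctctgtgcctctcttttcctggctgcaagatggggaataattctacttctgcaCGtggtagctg
Prlr, beside an internal annotated start, 38528 to 38757 bp past the canonical start, chr15:10215786-10216015, 18.7% and 72.0%: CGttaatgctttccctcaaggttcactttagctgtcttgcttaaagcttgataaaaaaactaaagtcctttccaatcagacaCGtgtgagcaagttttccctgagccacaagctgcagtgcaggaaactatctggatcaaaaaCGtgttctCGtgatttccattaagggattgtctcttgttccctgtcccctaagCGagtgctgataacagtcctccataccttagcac
Syt7, intron, chr19:10380043-10380292, 13.0% and 68.1%: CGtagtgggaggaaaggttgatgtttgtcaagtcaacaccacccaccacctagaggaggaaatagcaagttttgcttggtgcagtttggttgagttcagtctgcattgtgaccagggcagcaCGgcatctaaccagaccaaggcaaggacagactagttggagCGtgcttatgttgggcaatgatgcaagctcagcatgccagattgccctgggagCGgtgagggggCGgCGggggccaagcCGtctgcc
Tet3, intron, chr6:83430528-83430827, 21.6% and 74.1%: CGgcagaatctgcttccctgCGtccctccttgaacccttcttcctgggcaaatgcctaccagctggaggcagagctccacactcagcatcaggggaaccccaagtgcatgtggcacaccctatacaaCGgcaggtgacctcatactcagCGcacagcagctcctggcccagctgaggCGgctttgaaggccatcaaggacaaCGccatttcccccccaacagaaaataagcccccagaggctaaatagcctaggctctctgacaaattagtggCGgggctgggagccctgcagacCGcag
Vps53, intron, chr11:75998009-75998298, 10.7% and 80.9%: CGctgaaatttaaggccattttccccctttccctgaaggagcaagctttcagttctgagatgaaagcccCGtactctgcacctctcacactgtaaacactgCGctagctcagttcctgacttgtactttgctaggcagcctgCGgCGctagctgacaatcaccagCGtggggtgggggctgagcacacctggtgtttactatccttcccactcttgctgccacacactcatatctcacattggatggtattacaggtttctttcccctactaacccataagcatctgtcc

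The authors' pooled calls held 71271 autosomal HMRs at P2 and 61392 at P60, which merged into 78548 regions covering 65.2 Mb. Of these, 52260 were hypomethylated at both ages, 18774 at P2 only and 7514 at P60 only. A region was tested if it held at least 5 CpGs and averaged 10 or more reads on each CpG at both ages, which 74266 regions did. Of these, 51757 were hypomethylated at both ages, 18375 at P2 only and 4134 at P60 only, so regions of P60 only were left out most often. The pooled reads averaged 25.1 per autosomal CpG at P2 and 45.4 at P60, and the median tested region held 269 and 506 reads. The eYFP+ pools were the B2 columns of the deposited tables: all 6 eYFP+ samples covered a larger share of the B2 than of the B1 pool HMRs, and all 6 eYFP- samples the reverse. At 360 X-chromosome HMRs of male eYFP- cells, the female eYFP+ samples had an HMR at 5.28% to 14.2% and the male samples at 77.8%, 86.4% and 90%, so the sexes were as labelled. Methylation of mitochondrial DNA, which carries little and so gives an upper bound for unconverted cytosine, was 0.610% at P2 and 0.386% at P60. The starts of 10 β-cell genes (500 bp either side) had levels of 0.502% to 35.1% at P2 and 0.323% to 13.9% at P60. The starts of 9 immune genes had medians of 76.3% and 71.7%, with no start under 48.6%. Those of 8 endothelial genes had medians of 69.1% and 69.0%, and the lowest, Kdr, stood at 2.09% and 1.65%. Low starts were not particular to β-cell genes. Those of 8 duct genes had medians of 3.83% and 3.64%. At P2 the lowest starts among 10 other islet endocrine, 14 acinar and 9 mesenchymal and Schwann genes were at 0.828%, 0.919% and 1.10%. The P2 medians of these lists were 11.8%, 53.3% and 62.1%.

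Hypomethylated regions gained methylation far more often than they lost it between P2 and P60. The level was higher at P60 by at least 20 percentage points in 9801 tested regions (13.2%) and lower by as much in 445 (0.599%), at an adjusted p under 0.05 by Fisher's exact test with Benjamini-Hochberg adjustment. These tests compared 1 pool of reads per age, without replicate error between mice. The called gains went from a mean of 16.7% ± 5.79 (SD across 9801 regions) to 46.6% ± 10.5, and the called losses from 39.1% ± 7.81 (SD across 445 regions) to 12.5% ± 5.04. Over all tested regions the median was 10.3% at P2 and 13.7% at P60, with a median change of 2.73 points. Of all calls, 95.7% were gains. Under a ratio of levels of at least 1.8 in place of 20 points the share was 82.7%. Of the gains, 9030 lay in regions with a P2 HMR only and none in regions with a P60 HMR only, while 396 losses lay in the latter. This split is set by the calling, because the same reads drew the HMRs and gave the levels. Regions drawn instead from the eYFP- pools, whose reads are separate, gave 7551 gains and 418 losses among 73499.

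**Figure D1:**
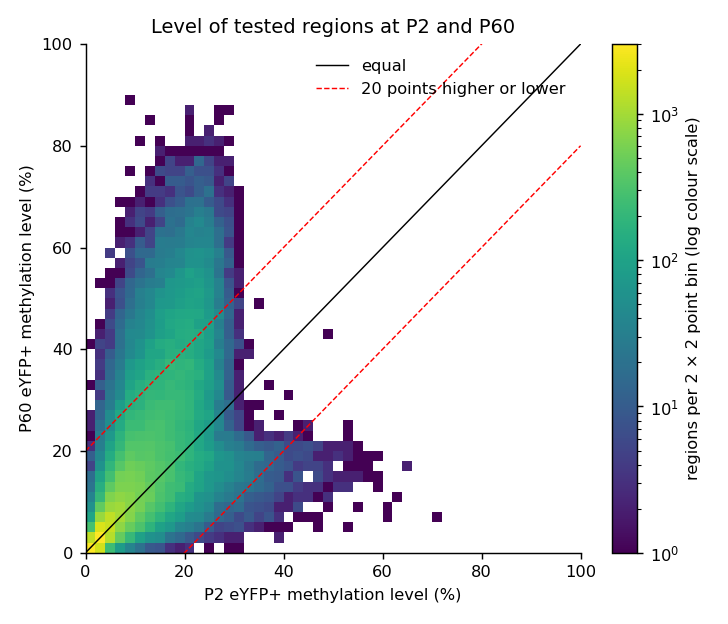
Methylation level (%) of the 74266 tested regions in the P2 (x axis) and P60 (y axis) eYFP+ pools, as the number of regions per bin on a log colour scale, with the line of equal level and dashed lines at 20 points. The 9801 gains spread above the upper dashed line, from P2 levels that the HMR call itself keeps low, and the 445 losses form a thin tail to the right.

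Hypomethylated stretches were narrower at P60, while the CpGs at their cores, hypomethylated at both ages by construction, had nearly the same level. Where 1 HMR of each age faced the other (50179 regions), the median length was 644 bp at P2 and 509 bp at P60, and 56.6% were shorter, 11.1% longer and 32.4% of the same length at P60. CpGs inside the HMRs of both ages stood at 3.66% at P2 and 3.67% at P60. CpGs at the edges, in the P2 HMR only, went from 21.8% to 41.8%, and in the eYFP- pools, which did not draw these edges, from 24.5% to 42.0%. The fewer CpGs in the P60 HMR only (13625 against 118502) went from 42.5% to 19.6%, and in the eYFP- pools from 35.4% to 22.0%. Restricted to the bases in HMRs of both ages, the test called 3 gains and 6 losses among 52073 stretches. These bases were hypomethylated by construction at both ages, so the HMR calls left little room for changes there. Outside the merged regions the level moved the other way, from 77.7% to 76.6%, and 67.9% of 23912 windows of 100 kb were lower at P60 (median change -1.957 points). In eYFP- cells the level outside the regions was 76.98% at P2 and 77.3% at P60, a change of 0.333 points against -1.08 in eYFP+ cells, and this difference was not tested.

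Promoters were called less often than other regions. Among regions within 500 bp of a protein-coding start, 469 of 15380 (3.05%) gained and 15 lost methylation, and their median levels were 3.09% and 3.41%. Introns held 5032 gains of 26349 tested (19.1%), exons 524 of 3131 (16.7%) and intergenic sequence 3776 of 29406 (12.8%). Of the losses, 223 were intronic and 167 intergenic. The share with a gain was 14.7% to 15.3% for regions with 1 to 3 CpGs per 100 bp and 5.09% for those with 6 to 10, but 15.2% again for the 646 regions with over 10. It was 21.4% for regions under 200 bp and 0.541% for those of 2 to 5 kb. Regions with a gain had a median length of 397 bp, 8 CpGs and a distance of 30101 bp to the nearest start, and those with a loss 293 bp, 6 CpGs and 22748 bp.

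In their own HMR calls, single P60 samples had fewer HMRs than single P2 samples. The 2 P2 samples had 59870 and 55619 autosomal HMRs and the 4 P60 samples had 39435, 46353, 37464 and 47689. These HMRs covered 57.6 and 54.1 Mb at P2 and 43.5, 43.4, 42.6 and 43.8 Mb at P60. Both measures were lower in every P60 sample than in either P2 sample. At P60 the 2 female samples had fewer and longer HMRs than the 2 male samples, with nearly equal totals in Mb. The means were 57744.5 ± 3006 HMRs (SD, n = 2) and 42735 ± 5043 (SD, n = 4), a difference of -15009, with an exact two-sided permutation p = 0.133, the smallest that 2 against 4 samples allow. The totals were 55.9 ± 2.47 Mb and 43.3 ± 0.516 Mb, with the same p. Reads per sample were not analysed here, so that depth could not be set beside these numbers. Regions with a P2 pool HMR only had an HMR in 63.2% and 51.0% of cases in the P2 samples and in 2.14% to 2.48% in the P60 samples, a direction fixed by the choice of regions, since the pools are made of these samples. In the eYFP- samples, which took no part in that choice, the shares were 48.97% and 47.1% at P2 and 2.56% to 4.05% at P60. An HMR was present in both P2 samples and in no P60 sample at 8336 tested regions (11.2%), and in all 4 P60 samples and no P2 sample at 177 (0.238%). Over all merged regions these counts were 8352 and 179, and they rose to 13064 without P2 replicate 2 and to 467 without P2 replicate 1. The second count was also 282 without P2 replicate 2, 303 without P60 replicate 1 and 340 without P60 replicate 3. Among the called gains 4577 followed the first pattern (46.7%), and among the called losses 74 followed the second (16.6%), with pool calls and sample HMRs drawn from the same reads. In no single sample was there an HMR at 1904 of the gains and 128 of the losses, for which only the pools can speak.

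**Figure D2:**
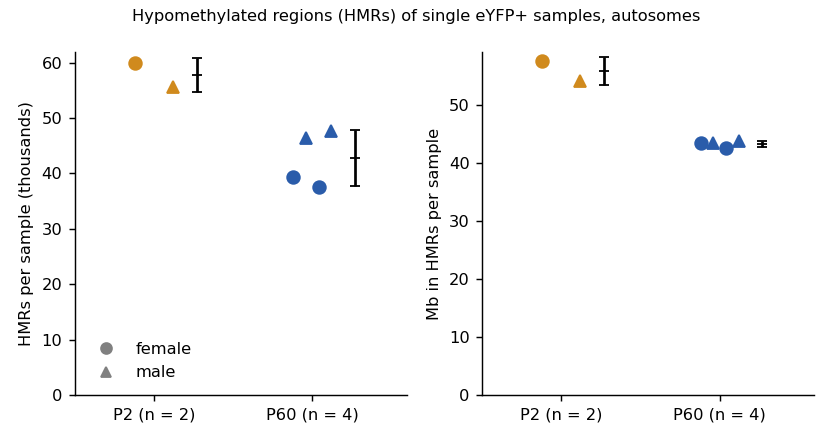
Number of HMRs (in units of 1000) and Mb in HMRs for each eYFP+ sample, with mean and SD beside the points. Each P60 sample lies below both P2 samples in both panels, and the 2 P60 females have the fewest HMRs.

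The regions named here for gains are those with the largest change among the 4577 present in both P2 samples and no P60 sample. All 10 lay outside promoters, and their levels rose by 60.9 to 72.2 points. The largest was in an exon of Zfp703, a transcriptional corepressor of the zinc finger family (chr8:27469555-27469662). Its 10 CpGs went from 13.3% (95% Wilson interval 9.50 to 18.4, 225 reads) to 85.5% (82.4 to 88.1, 587 reads), and every CpG was higher at P60. The intron of Vps53, a subunit of a tethering complex for vesicles returning to the Golgi, went from 10.7% to 80.9% over 7 CpGs, while the 1500 bp on either side stood at 76.8% and 83.6%, so that the dip present at P2 was filled. Introns of Cux2, a homeodomain factor, and of Tle3, a Groucho corepressor, went from 21.2% to 87.7% and from 14.8% to 81.0%. At all 4 genes the HMR covered 75.2% to 100% of the region in each P2 sample. Its presence at P2 and absence from each P60 sample were required by the choice of these regions. The other gains lay in introns of Cep41, Wwox and Tenm2 and between genes nearest to 4931429L15Rik, Pou3f1 and Mdfic2.

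Among losses present in all 4 P60 samples and neither P2 sample, the 10 largest fell by 36.6 to 45.3 points. An intron of Nup214, a nuclear pore protein, fell from 58.1% (51.3 to 64.7, 203 reads) to 12.8% (10.1 to 16.1, 484 reads) at chr2:31928751-31929019, inside flanks of 81.4% and 82.8%. Its HMR covered the whole region in each P60 sample, where the choice of these regions already required an HMR. Akap13, an anchoring protein of protein kinase A, held a loss at an internal annotated start, from 59.5% to 18.5% (chr7:75259286-75260424), and another in the intron next to it, from 55.7% to 15.8% (chr7:75261559-75263497). Gpsm1, a modulator of G protein signalling, went from 52.5% to 12.1% in an exon. An exon of Tomm34, a mitochondrial import protein, went from 51.7% to 12.9%. A further 3 were intergenic, nearest to Ccnh, Hey1 and Sema6d.

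Genes of the adult β cell held a larger share of losses than the genome. In the 42 of 44 such genes with a region, 14 of 308 tested regions fell, or 4.55% against the 0.599% of all regions, and 41 rose (13.3% against 13.2%). The median change was 1.20 points against 2.73. This list and the gene lists below were chosen with earlier results of these data known, so their shares are descriptions only. The losses lay in 11 genes, named here after their values were seen, except Ucn3 and Slc2a2, which were to be named whatever their values. Nkx2-2 below was also chosen after its values were seen. They fall on the hormone and peptide products Iapp and Ucn3, the receptors Glp1r, Prlr, Ffar1 and Robo1, the channel subunits Abcc8, Cacna1c and Cacna1d, the glucose transporter Slc2a2 and the oxidoreductase Ero1b.

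At Ucn3, Iapp, Ins1, Ins2 and G6pc2 pool HMRs covered more bases of the region that holds the start at P60 than at P2. Cover also grew at the Slc2a2 start (3967 to 5240 bp). It shrank at the starts of Pdx1 (12693 to 12158 bp), Mafa (4686 to 4645 bp), Nkx6-1 (13342 to 9862 bp) and Npy (2145 to 1871 bp). At the Igf2 region of 256 CpGs it went from 3907 to 3568 bp. Among all regions with 1 HMR of each age, 56.6% were shorter and 11.1% longer at P60. Ucn3 encodes urocortin 3, a peptide that adult but not newborn β cells release. Its region (chr13:3993372-3995363, from the start into the first intron) fell from 35.9% (32.4 to 39.6, 690 reads) to 7.53% (6.06 to 9.31, 1023 reads), with an adjusted p = 1.18e-46 by Fisher's exact test. The 500 bp on either side of the Ucn3 start stood at 23.1% and 13.9%. The HMR covered 62.2% of the region in both P2 samples and 100%, 94.4%, 100% and 100% in the P60 samples. The start regions of Ucn3, Iapp, Ins1, Ins2 and G6pc2 are the P60 pool HMRs, drawn from the same P60 samples. Fuller cover at P60 was therefore largely set by that choice and is not separate support. Iapp, the gene of amylin, which is stored and released with insulin, fell from 30.2% to 6.12% over 6039 bp and 41 CpGs, 34 of which were lower at P60. Its start was already at 4.85% at P2 (0.323% at P60), and the stretch printed above lies at the other end of the gene. HMRs covered 82.5% of the region in both P2 samples and all of it in every P60 sample. Ins1 stood at 27.2% (24.2 to 30.4) at P2 and 8.31% (6.79 to 10.1) at P60, just inside the 20-point limit at -18.9 points. HMRs covered 50.3% of the Ins1 region in both P2 samples and 89.2% to 100% in the P60 samples. Ins2 stood at 20.8% and 6.91%, with 88.4% and 89.1% of the region covered at P2 and 99.2% to 100% at P60. G6pc2, a glucose-6-phosphatase subunit of the β cell, stood at 17.2% and 4.16% at its start, with 68.5% and 69.0% covered at P2 and 100% in every P60 sample. An intronic region of G6pc2 went the other way (22.9% and 40.9%), with an HMR in both P2 samples and no P60 sample. The regions of Slc2a2, the glucose transporter GLUT2, changed by -6.45 to 5.61 points, apart from an exonic stretch of 5 CpGs that fell from 39.8% to 17.9% with no HMR in any single sample. In eYFP- cells that stretch stood at 20.8% and 17.0%.

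At receptors and channels all losses except that of Ffar1 were intronic. Glp1r, the receptor for the incretin GLP-1, fell from 62.0% (54.7 to 68.8, 179 reads) to 11.2% (8.37 to 14.8, 376 reads) at the intronic stretch printed above, and all 5 CpGs were lower. A further Glp1r intron region (chr17:31125464-31125865) fell from 56.7% to 19.5%. No single sample had an HMR at either, and the flanks of the printed stretch were at 75.6% and 58.9%. Prlr, the receptor for prolactin and placental lactogen, fell at intronic regions from 58.8% to 14.6% and from 44.1% to 11.2%, and rose from 18.7% (13.1 to 26.0, 139 reads) to 72.0% (66.1 to 77.3, 243 reads) beside the internal start printed above, with all 6 CpGs higher. No single sample had an HMR at this rise or at the second Prlr loss, and only 1 of the 4 P60 samples had one at the first. Ffar1, a receptor for long-chain fatty acids, fell from 38.1% to 11.6% over its start. HMRs covered 52.8% and 49.2% of that region at P2 and 100%, 100%, 56.1% and 89.3% at P60, in a region that again is the P60 pool HMR. Abcc8, the sulfonylurea receptor subunit of the KATP channel, fell from 38.1% to 15.9% in an intron that had an HMR in all 4 P60 samples and neither P2 sample. The L-type calcium channel genes Cacna1d and Cacna1c fell from 46.5% to 13.97% and from 44.1% to 21.5% in introns, without an HMR in any single sample. Robo1, an axon guidance receptor, fell from 25.8% to 1.961% in an intron with an HMR in all 4 P60 samples and neither P2 sample. Ero1b, which oxidises disulfides of proinsulin in the endoplasmic reticulum, fell at intronic regions from 32.3% to 11.9% and from 33.97% to 13.6%.

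**Figure D3:**
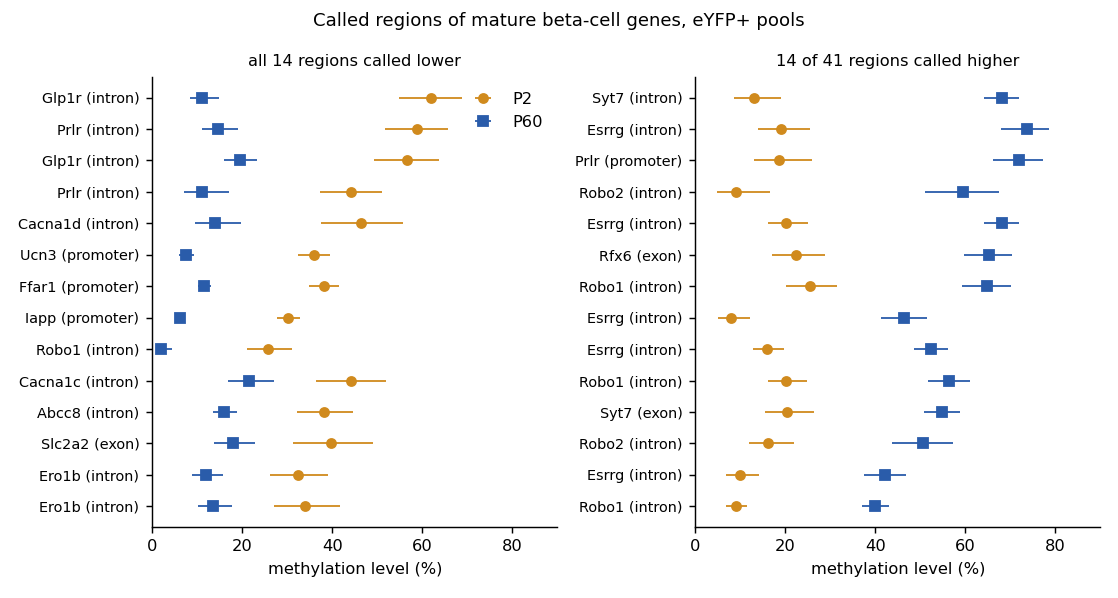
Methylation level (%) at P2 and P60 of called regions in mature β-cell genes, with 95% Wilson intervals that cover counting error of the pooled reads only, promoter meaning that the region reaches within 500 bp of any annotated start; left, all 14 losses, right, the 14 largest of 41 gains. The P2 and P60 intervals are apart in each row, and losses begin at 25.8% to 62.0% while gains begin at 7.97% to 25.4%. Rows were called on these same reads by Fisher's exact test and a minimum change, so separate intervals were largely set by that choice. The starting levels were likewise largely set by the HMR calls and the minimum change.

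Of the 41 gains in this list 10 were in Esrrg, 7 in Robo1 and 6 in Robo2, all long genes. The largest were an intron of Syt7, a calcium sensor of exocytosis, which rose from 13.0% (8.69 to 19.1, 161 reads) to 68.1% (64.04 to 71.8, 545 reads), an intron of Esrrg, a nuclear receptor of oxidative metabolism (19.1% to 73.6%), and the internal Prlr start. HMRs covered 51.2% and 100% of the Syt7 region in the P2 samples and none of it at P60. Nkx2-2, a transcription factor of β-cell identity, rose from 13.3% to 38.5% in a region of 59 CpGs whose HMR covered 100% in both P2 samples and 6.44% to 17.9% in the P60 samples. Smaller regions rose at Rfx6 (22.5% to 65.2%), Neurod1 (16.4% to 37.0%) and Pax6 (9.71% to 29.8%), also chosen after their values were seen. The Rfx6 region and the Esrrg intron had no HMR in any single sample, and Neurod1 and Pax6 had one in only 1 of the 2 P2 samples. The start regions of other identity factors were not called. Pdx1 stood at 2.54% and 2.25% over 12693 bp, Mafa at 3.92% and 2.91% over 4686 bp and Nkx6-1 at 4.97% and 12.5% over 13342 bp. For Nkx6-1 the HMRs covered 98.5% and 97.9% in the P2 samples and 73.8% to 75.1% in the P60 samples, and its pool HMR went from 13342 to 9862 bp.

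**Figure D4:**
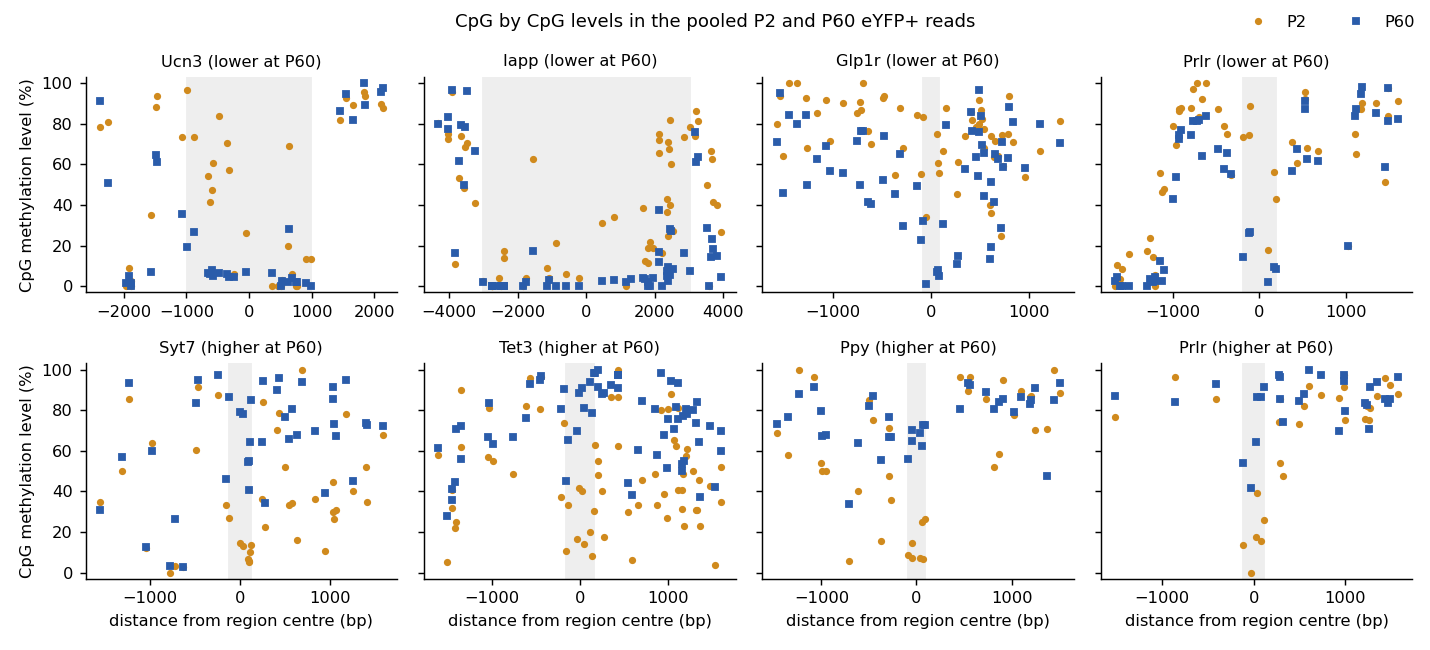
Level (%) of each CpG against its distance (bp) from the region centre in the pooled P2 (circles) and P60 (squares) eYFP+ reads; grey marks the region, upper row losses, lower row gains. At Ucn3 and Iapp the low stretch grows from the side, at Glp1r and the Prlr intron a dip forms, and at Ppy and the internal Prlr start a dip closes.

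Genes of the immature and fetal β cell rose at 10 of 99 tested regions (10.1% against 13.2%) and fell at 2 (2.02% against 0.599%). The largest rise was in an exon of Ppy, the gene of pancreatic polypeptide, from 13.7% (9.62 to 19.03, 205 reads) to 66.5% (61.9 to 70.8, 427 reads), where the HMR covered the whole region in both P2 samples and none of it in the P60 samples. Next to Insm1, a zinc finger factor of endocrine differentiation, a region of 64 CpGs rose from 10.4% to 38.8%, and its HMR coverage went from 100% in both P2 samples to 15.1% to 29.6% at P60. Rfx3, a factor of ciliogenesis and endocrine development, rose from 8.28% to 34.8% in an intron. The losses were at Nnat, an imprinted gene of a small membrane protein (31.1% to 9.62%), and in an intron of Myt1l, a paralogue of Myt1 (42.8% to 22.1%). Npy stood at 5.58% and 9.16% at its start. The Igf2 region of 256 CpGs at one of its annotated starts stood at 3.28% and 5.30%.

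Genes whose products are normally kept low in β cells (disallowed genes) rose at 17 of 93 tested regions (18.3% against 13.2%), in 6 of 22 genes, and fell at none. Of these rises 6 were in Smad3, and intronic regions of all genes together rose at 19.1%. Cat, the gene of the peroxide-degrading catalase, rose at neighbouring intronic regions from 19.2% to 74.3% and from 11.2% to 59.9%. Smad3, a transducer of TGF-β signals, rose from 21.4% to 70.0% in an intron of 16 CpGs. For hexokinase 1 (Hk1) none of 4 regions was called, and its start stood at 3.90% and 6.03%. The start region of Ldha, a lactate dehydrogenase subunit, stood at 4.01% and 6.58%.

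Cell cycle genes rose at 9 of 74 tested regions (12.2% against 13.2%) and fell at none. Bmi1, a Polycomb protein that sustains β-cell proliferation, rose from 9.55% (7.69 to 11.8, 785 reads) to 49.5% (47.2 to 51.7, 1856 reads) over 32 CpGs, 3891 to 4388 bp past its canonical start and beside internal annotated starts. Its HMR covered the region fully in both P2 samples and was absent from all 4 P60 samples. An intron of Rb1 rose from 14.6% to 53.8%, and a stretch 23 bp long, centred at -1448 bp from the start of Cdkn1b, the gene of a cyclin-dependent kinase inhibitor, from 19.9% to 46.8%, against 29.6% and 26.6% in eYFP- cells. Among DNA methylation enzymes 6 of 62 regions rose (9.68% against 13.2%) and none fell. An intron of Tet3 rose from 22.8% (18.2 to 28.3, 263 reads) to 76.9% (73.0 to 80.4, 502 reads) with all 9 CpGs higher, though only 1 of 2 P2 samples had an HMR there. Dnmt3a rose at 3 of 22 regions, and the largest change was from 24.5% to 49.8%. The region at the 5′ end of the gene stood at 1.39% and 1.14%.

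Against the 13.2% of all regions that rose, genes of other islet hormones rose at 2 of 13 regions (15.4%, Ppy and Ghrl), duct genes at 3 of 29 (10.3%), mesenchymal and Schwann genes at 1 of 18 (5.56%), endothelial genes at 1 of 23 (4.35%), acinar genes at 1 of 25 (4%) and immune genes at none of 7. Regulators of other lineages rose at 3 of 63 (4.76%). No region in these lists fell, and the part of other cell types in the results was not tested. The region upstream of Ghrl, the ghrelin gene, rose from 7.10% to 41.1% and an intron of the duct gene Muc1 from 12.5% to 56.8%. The other named rises were at Krt19 (8.18% to 28.7%) among duct genes, Nr5a2 (15.3% to 46.1%) among acinar genes, Erg (19.2% to 44.5%) among endothelial genes and Col1a1 (17.9% to 43.5%) among mesenchymal genes. Among regulators of other lineages they were at Sim1 (16.4% to 41.1%), Pax7 (15.6% to 36.8%) and Lhx2 (18.6% to 38.9%).

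Short binding motifs were counted in the 200 bp around the centre of each tested region, on both strands, as a description of the sequence. The FOXA letters TGTTTAC were present in 5.63% of all regions, 6.38% of gains and 8.76% of losses. The GATA letters AGATAAG were present in 3.24% of all regions, 5.53% of gains and 0.899% of losses (4 of 445). The NEUROD letters CAGATGG were present in 6.76%, 8.56% and 8.99%, and the homeodomain letters TAATTA in 7.47%, 8.75% and 7.64%. The ETS letters CCGGAAGT, frequent at CpG-rich starts, were present in 0.662% of all regions and in 0.306% of gains. The windows differed in composition, with 51.1% G and C in all regions, 49.1% in gains and 46.6% in losses.

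Within the regions the changes were much alike in the eYFP- lineage, while the difference outside them was not tested. Across 74191 regions the change in eYFP+ and in eYFP- cells had a Pearson r of 0.914, given as a description, since the regions share the submissions and were drawn from eYFP+ reads. Of the 9796 gains and 440 losses that could be tested in all pools, 99.8% and 97.95% had the same sign in eYFP- cells, with median changes there of 26.4 and -17.9 points against 27.8 and -24.8 in eYFP+ cells. The calls were chosen on eYFP+ reads, and the part of that choice in the gap between these medians was not tested. A test of the difference itself (Wald test of age by lineage on the pooled reads, Benjamini-Hochberg adjustment) called 88 of 74191 regions (0.119%) at 20 points, 56 with a more positive and 32 with a more negative change in eYFP+ cells. The count was 165 with regions drawn from all 4 pools and 52 without regions under 100 bp. The differences of the changes lay within 10 points in 94.6% of regions. Among the regions named above, Ucn3 changed by -28.4 points in eYFP+ and -26.2 in eYFP- cells and Tet3 by 54.1 and 48.5.

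**Figure D5:**
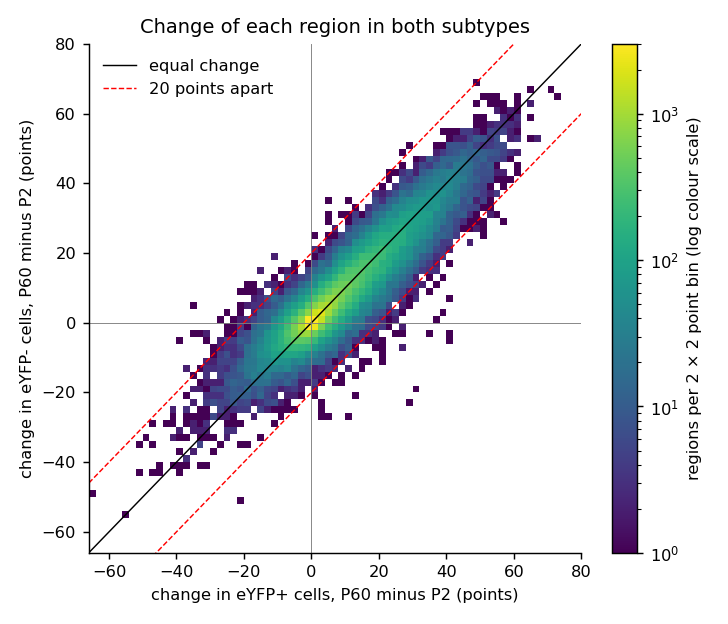
Change in level from P2 to P60 (percentage points) of 74191 regions in eYFP+ (x axis) and eYFP- cells (y axis), as regions per bin on a log colour scale. Most regions follow the line of equal change, and 94.6% lie within 10 points of it.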

How the data were processed

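Tagmentation-based whole-genome bisulfite libraries of sorted β cells were trimmed by the authors (Trim Galore 0.6.6, cutadapt 1.16, SAMtools 1.5 per the submitters' processing notes), mapped to mm39 with abismal and summarised with MethPipe, whose version is not given in the sources used here. Deposited were counts of methylated and unmethylated reads per CpG, pooled by the authors per age and lineage, HMR intervals per pool and per sample, and lists of differentially methylated regions of the authors' own comparisons, which were not used. Levels are 100 × methylated reads over all reads of a region, so deeper CpGs weigh more.

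P2 and P60 eYFP+ pool HMRs on autosomes were merged at 1 bp overlap. The pools are made of the single samples, so the cover of a region by sample HMRs depends on how the regions were drawn. Each region with at least 5 CpGs and 10 reads per CpG was tested by a two-sided Fisher's exact test (scipy 1.17.1) with Benjamini-Hochberg adjustment, and called at adjusted p under 0.05 and 20 points. The pools hold unequal numbers of samples and reads. Intervals are 95% Wilson intervals and cover counting error only. Calls were checked on simulated reads. Annotation was GENCODE on GRCm39, protein-coding genes. A region belonged to a listed gene if it overlapped the gene or the 5 kb upstream, marker starts were those of the canonical transcript, and Ins2 and G6pc2 have annotated spans that reach far upstream. The lineage comparison added 0.5 reads to each count.

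Named were the 10 largest calls per direction with an HMR in every sample of the age with the lower level and in none of the other, 14 fixed genes, and the 3 largest calls per list. Some of the regions and genes so named are not reported here. The members and gene lists were chosen with earlier results of these data known. Alternatives covered size, CpG and read minimums, thinning of P60 reads, eYFP- regions, shared bases, genome shift, averaging, HMR length, overlap and samples left out.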

Additional observations from a re-analysis of the deposited data

Results flagged for a closer look

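5 regions had the largest differences between the change in eYFP+ and the change in eYFP- cells, each past the test of the difference. They lay within regions drawn from eYFP+ reads, so that a low eYFP+ level at 1 age was favoured by the choice of region. An exonic stretch of Gnas of 22 bp went from 24.2% to 52.5% in eYFP+ and from 60.2% to 37.9% in eYFP- cells, a difference of 50.7 points. At an annotated start of Slc38a4 the levels went from 24.6% to 56.5% in eYFP+ and from 64.1% to 45.7% in eYFP- cells, a difference of 50.3 points. At a start of Inpp5f they went from 21.7% to 62.4% and from 57.5% to 52.2%, a difference of 46.0 points. As background, Gnas, Slc38a4 and Inpp5f are imprinted genes. A stretch of 13 bp far from Gata3 differed by 45.5 points, from 19.7% to 61.3% against 45.8% to 42.0%. A stretch of 15 bp far from Pcdh9 differed by -40.7 points, from 39.7% to 4.17% against 20% to 25.2%. No HMR was present at the Gnas stretch in any eYFP+ sample, and 1 of the 2 P2 samples had one at Slc38a4, Inpp5f and the Gata3 stretch.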

How the results depend on the processing

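Gains outnumbered losses in all alternatives except the bases in HMRs of both ages, which left 3 gains and 6 losses, since these bases were hypomethylated by construction at both ages. Gains and losses numbered 20821 and 2426 at 10 points, 3958 and 100 at 30 points, 23038 and 4821 at a ratio of 1.8, and 3582 and 86 with at least 10 CpGs, where fewer regions were tested (39212). Gains were 82.7% of calls at the ratio of 1.8, 89.6% at 10 points and 94.8% to 97.7% under the other alternatives apart from the shared bases. The remaining alternatives gave 7551 to 10684 gains and 385 to 498 losses. 2 of these were added after the data were seen: leaving out regions of over 3 times the median depth (9800 and 443) and those under 100 bp (9621 and 418). All 181 named changes stayed within counting error of their main value with thinned P60 reads and with unweighted CpGs. None of the called ones reversed direction, and direction was not checked for those not called. The difference in HMR number ranged from -17135 to -12884 and that in Mb from -14.3 to -10.8 when a sample was left out. Replicate numbers 1 are female and 2 male at both ages, so same-numbered samples share sex. Their deviations correlated at -0.00713 and -0.0116 across autosomal regions, where no pairing beyond sex was seen. With 2 P2 samples the P2 deviations are opposites, so these values are not separate. With the replicate block the differences were -14850.5 HMRs and -12.4 Mb, and the exact p was 0.5, the smallest possible. HMRs seen in both P2 and no P60 sample ranged from 8715 to 13064 over single omissions (8352 with all samples, 13064 without P2 replicate 2). Those seen in all P60 and no P2 sample ranged from 226 to 467 (179 with all; 467 and 282 without P2 replicate 1 and 2, 303 and 340 without P60 replicate 1 and 3), and the replicate block of numbers 1 and 2 gave 484, with fewer samples to satisfy. Regions whose change differed between lineages numbered 88, 237 at 10 points, 165 with regions from all 4 pools and 52 without those under 100 bp, the last added after the data were seen. Pooled reads cannot be split by sample, so no region level has an error between mice.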
